A study of Mus musculus with 6 samples.

Results

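The genes described here are 35 markers of the integrated stress response and of the unfolded protein response. They were measured in hearts of mouse embryos in which the genes of the RNA-binding proteins RBPMS and RBPMS2 were targeted for deletion. They were chosen by symbol as known sensors, transcription factors and targets of the 2 responses, by a rule that uses no values, but with earlier results of these data known. All 35 were found among the 48709 genes of the table. The comparison tested 26747 genes, those with a mean of at least 1 in at least 1 genotype, and 34 of the 35 were among them. Hearts of C57BL6/J embryos were sequenced as polyA RNA, with 3 libraries in each of 2 genotypes. Controls were littermates with floxed alleles of both genes (RBPMS flox/flox RBPMS2 flox/flox). Double knockouts carried the same floxed alleles and were positive for a Cre transgene that the labels call XML Cre, which is meant to delete both genes in cardiomyocytes. The promoter behind the transgene, the embryonic stage and whether a library came from 1 heart are not stated in any source used here. Both genotypes were floxed and no group carried Cre alone, so an effect of Cre and an effect of losing the genes cannot be told apart.

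Both responses adjust protein synthesis to stress. In the integrated stress response, kinases that sense unfolded protein, amino acid shortage, double-stranded RNA or heme shortage phosphorylate the translation factor eIF2alpha. Most translation then slows, while the mRNA of the transcription factor ATF4 is translated more and ATF4 switches on genes of amino acid synthesis and uptake. In the unfolded protein response, the sensors PERK, IRE1 and ATF6 in the membrane of the endoplasmic reticulum (ER) raise chaperones, folding enzymes and the machinery that returns misfolded proteins to the cytosol for degradation. Embryonic cardiomyocytes make membrane and secreted proteins through the ER, and in heart muscle ATF4 targets are known to rise in mitochondrial disease.

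Values are normalised read counts: read counts that the authors scaled per library and rounded. They summed to between 19770390 and 20215282 per library. Rbpms was at 3551 to 3956 in controls against 670 to 721 in knockouts, and Rbpms2 at 2444 to 2716 and 1257 to 1676. Both were lower in knockouts (-2.44 and -0.83, limma adjusted p = 6.83e-13 and 2.92e-05), but neither transcript was absent. Protein was not measured here. Among defining markers, the summed cardiomyocyte list (11 genes) was at 795542 to 855396 in controls and 650348 to 723049 in knockouts, so cardiomyocyte transcripts were abundant in each library. Of the 11, 2 passed the test, both lower: Myh6, a myosin heavy chain gene (-0.82, limma adjusted p = 1.68e-05), and Actc1, the cardiac actin gene (-0.52, adjusted p = 0.000647). The other 9, a split made after their values were seen, summed to 478091 to 513031 in controls and 438913 to 510490 in knockouts, with overlap. Since the split took out the genes that passed, this overlap does not show that the rest were unchanged. Tnnt2 and Nkx2-5, among the 9, had each knockout below each control without passing (adjusted p = 0.264 and 0.109), as 10.6% of all tested genes had. Markers of smooth muscle and pericytes (6 genes) summed to 13116 to 13344 and 9101 to 11166. Most of this sum came from Cnn1, Abcc9 and Cspg4. Myh11 was low, with 13, 26 and 20 against 11, 12 and 13, and so was Rgs5, with 33, 35 and 30 against 17, 38 and 27. The sum is therefore a weak measure of smooth muscle cells and pericytes. Of the 6 genes 1 passed, the calponin gene Cnn1, with 4962, 5350 and 5401 against 1480, 2072 and 1156 (-1.78, adjusted p = 0.00452). The other 5, again split after the fact, summed to 7943 to 8154 and 7029 to 9686, with overlap. Macrophage markers (6 genes) summed to 1155 to 1187 and 1189 to 1429, of which Lyz2 gave 797 to 878 and 758 to 966. Of the 6, 2 passed, both higher. Ptprc had 15, 12 and 12 against 30, 31 and 35 (1.24, adjusted p = 0.0091). Cx3cr1 had 64, 61 and 52 against 79, 126 and 106 (0.78, adjusted p = 0.021). Sums of the endothelial, fibroblast, epicardial, erythroid and neural lists overlapped between genotypes. In the endothelial list 1 gene passed, Emcn, which was higher in knockouts (0.38, adjusted p = 0.0335). The hepatocyte list of 5 genes summed to 12 to 24, with Alb at 0 in 5 of the 6 libraries and 1 in knockout 3. In bulk tissue, fewer cells of a type and less RNA per cell cannot be told apart, and the part of these differences in the results was not tested. Xist and the Y-linked Eif2s3y gave controls 1 and 2 and knockouts 1 and 2 a female pattern and both libraries numbered 3 a male one. Fold changes are given as the knockout minus the control on the log2(value + 1) scale, ± SE, which understates the change of low genes.

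None of the 34 tested members passed the test as higher in the knockout hearts, though 14 had fold changes above 0 and 20 below. Among them 0 rose and 2 fell at an adjusted p under 0.05 (limma): Herpud1, a membrane protein of ER-associated degradation, fell by 28.1% and Mthfd2, a mitochondrial folate enzyme, fell by 21.8%. Across all tested genes 4.86% were called, 2.31% higher and 2.55% lower. The 2 of 34 members (5.88%) were therefore near the share of all genes, and 8.08% of the 12370 genes whose mean reached 100 were called (3.6% higher and 4.48% lower). Unadjusted p was under 0.05 for 7 members, of which 6 were lower. Over all tested genes it was under 0.05 in 9.72% with the knockout higher and 9% with the knockout lower, and among those whose mean reached 100 in 12.7% and 14.6%. The median log2 fold change of the members was -0.02, beside 0.02 over all tested genes and -0.02 over those whose mean reached 100. Of the latter, 5727 had fold changes above 0 and 6643 below. Groups did not overlap in 4 members that were higher and 6 that were lower in knockouts. Among all tested genes the groups did not overlap in 11.1% with the knockout higher and 10.6% with the knockout lower, and among those whose mean reached 100 in 14.4% and 17.1%.

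The intervals show how large a difference the 6 libraries leave room for. Among the 30 members with a mean of at least 100, the 95% interval of the log2 fold change lay inside a 1.5-fold difference either way for 29. The exception was Herpud1, with an interval from -0.66 to -0.29. All 30 intervals excluded a 1.5-fold rise, also with the wider spread of a fit without robust moderation of variances, where 28 lay inside 1.5-fold either way. The other 4 tested members (Trib3, Chac1, Gdf15 and Nupr1) had low values and wide intervals.

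**Figure D1:**
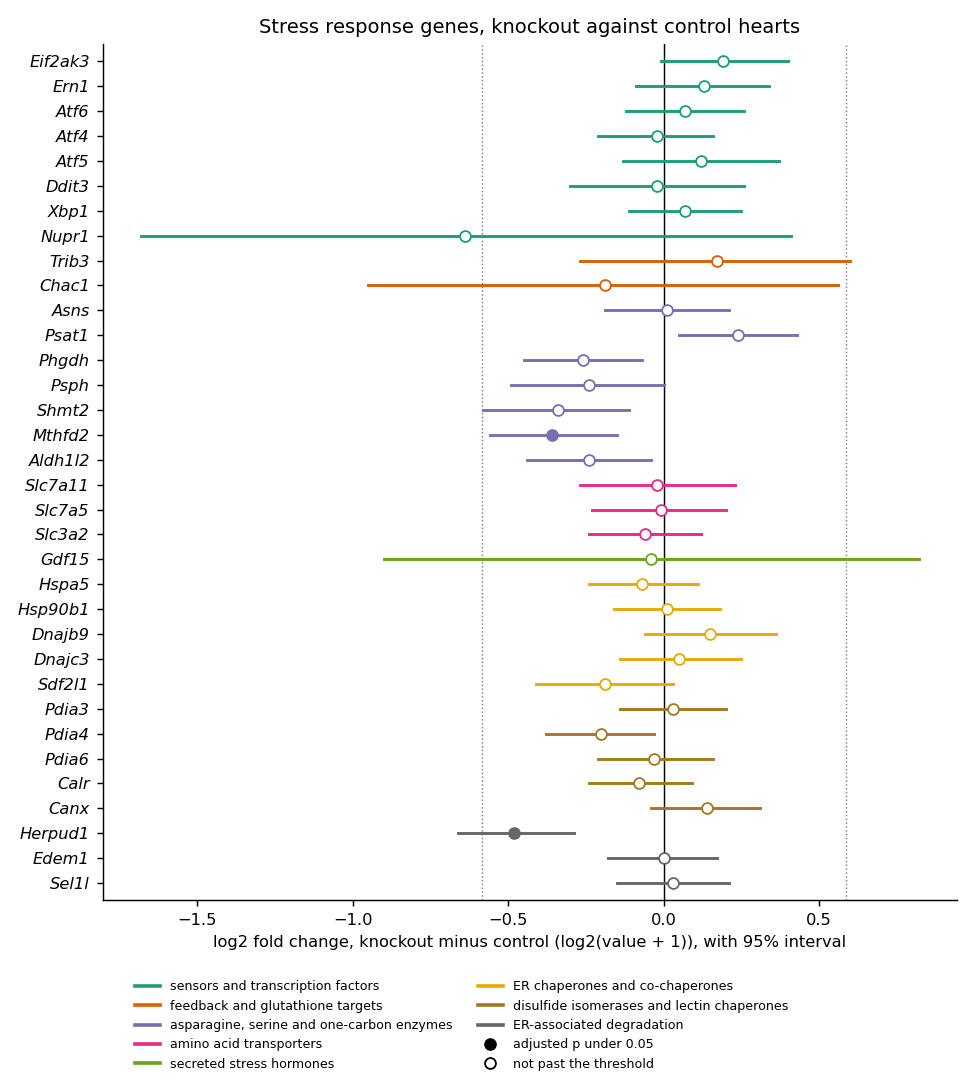
Log2 fold change of each of the 34 tested members (knockout minus control, points) with its 95% interval (lines), coloured by role; filled points passed an adjusted p of 0.05 and dotted lines mark a 1.5-fold difference. Most points lie within 0.20 of 0, and Herpud1 at -0.48 and Mthfd2 at -0.36 are the filled ones.

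Levels per kb of merged exons placed the ER folding genes at the top in both genotypes. Calr was at 6090.7 normalised reads per kb in controls and 5782.2 in knockouts, Hspa5 at 5190.7 and 4961.3, Pdia3 at 4806 and 4898.2 and Hsp90b1 at 4311 and 4347.6. Atf4 followed at 1010.7 and 990 per kb, above every other transcription factor of the set (Xbp1 at 516 and 543). Genes that are usually low without stress were low here: per kb, Trib3 was at 26.7 and 29.8, Chac1 at 7.33 and 6.31, Gdf15 at 3.24 and 3.24, and Nupr1 at 1.72 and 1.06. Taken as a sum of normalised reads, the 35 genes took 0.591% to 0.624% of a control library and 0.584% to 0.63% of a knockout library. These ranges overlap.

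**Figure D2:**
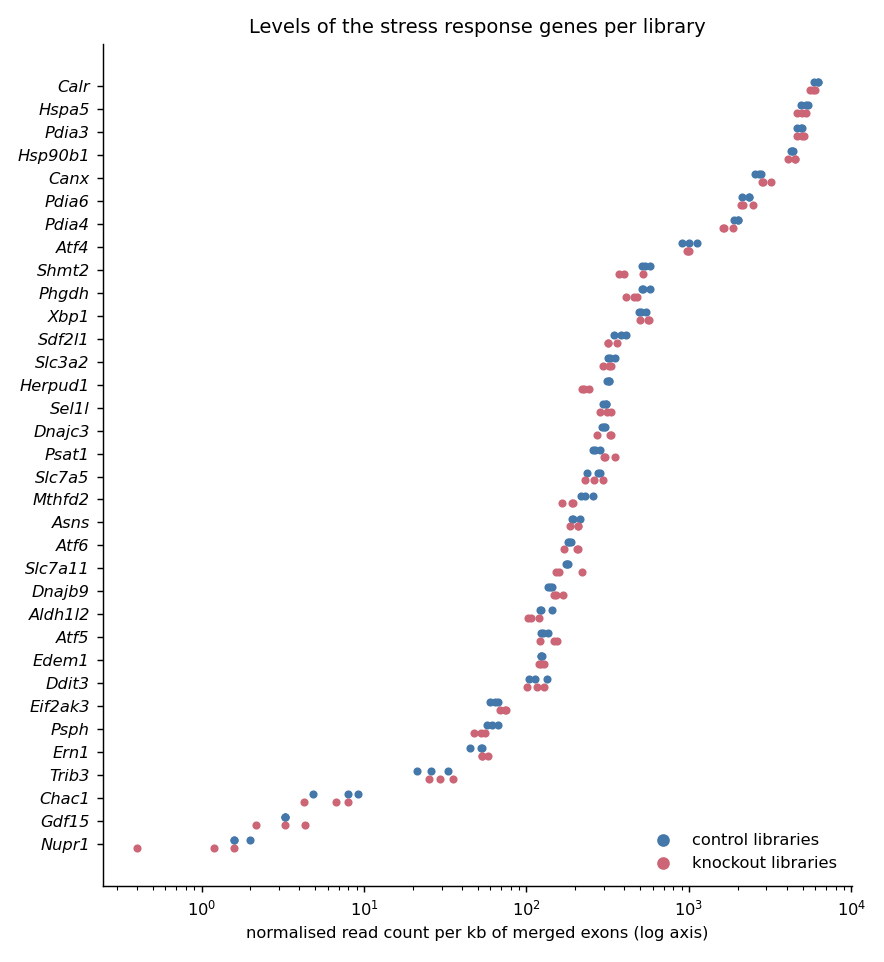
Normalised read count per kb of merged exons (log axis) of the 34 tested members in each library, controls in blue and knockouts in red, ordered by the control mean. The 7 ER folding genes from Pdia4 (1969.3 per kb in controls) to Calr (6090.7) lie highest, and Gdf15 and Nupr1 lie below 5.

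Among the sensors, Eif2ak3, which encodes the kinase PERK, had 385, 402 and 360 normalised reads in the controls (numbers 1 to 3, here and below) and 414, 446 and 453 in the knockouts. Each knockout lay above each control, but the difference did not pass the test (0.19 ± 0.10, interval -0.01 to 0.40, limma adjusted p = 0.301). Ern1, the gene of the endonuclease IRE1, had 410.3 ± 37.7 in controls and 447 ± 21 in knockouts (SD, n = 3 each), with overlapping groups (0.13 ± 0.10). Atf6, the membrane-bound transcription factor, had 1696.7 ± 35 and 1791.7 ± 199 (0.07 ± 0.09). None of the 3 sensors passed, and all had positive fold changes.

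None of the transcription factors downstream of them passed the test. Atf4 had 2348, 2149 and 2653 normalised reads in controls and 2335, 2371 and 2298 in knockouts. The knockout values lay within the range of the controls (-0.02 ± 0.09, interval -0.21 to 0.16, limma adjusted p = 0.909). ATF4 is controlled mainly at translation, which RNA levels do not measure. Ddit3, the gene of the pro-apoptotic factor CHOP, had 228, 177 and 194 in controls and 199, 173 and 218 in knockouts, also overlapping (-0.02 ± 0.14). Xbp1, whose mRNA IRE1 cuts to give the active form, had 1675.3 ± 85.4 and 1762.3 ± 112 (0.07 ± 0.09). Gene totals do not separate its cut and uncut forms. Atf5, a relative of Atf4, had 255.7 ± 13.2 and 279.3 ± 33.8 (0.12 ± 0.12), and the stress-induced chromatin protein gene Nupr1 had 4, 4 and 5 reads against 3, 4 and 1.

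Genes that respond strongly to ATF4 and CHOP in many cells were low in both genotypes. Trib3, a pseudokinase that damps the response, had 55, 45 and 70 normalised reads in controls and 62, 53 and 75 in knockouts. The groups overlapped (0.17 ± 0.21, interval -0.27 to 0.60). Chac1, which degrades glutathione, had 15, 13 and 8 against 11, 7 and 13. Of the secreted hormones of mitochondrial and ER stress, Gdf15 had 6 in each control and 4, 6 and 8 in knockouts. Fgf21 was at 0 in all 6 libraries and was not tested; a count of 0 allows up to about 3 reads per library, for counting error only. The intervals of Chac1, Gdf15 and Nupr1 leave room for changes of 1.5-fold or more, and that of Trib3 just reaches a 1.5-fold rise. At these levels a moderate change may have gone undetected.

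The enzymes that make serine and pass its carbon to folate held the larger of the small differences. Of the 8 role groups this one had the lowest median log2 fold change, -0.24 over 7 genes. Of the 7, 0 rose and 1 fell (14.3%, beside 8.08% of all genes whose mean reached 100). Mthfd2 (chromosome 6, 83305691 to 83325908, minus strand, mm10), the mitochondrial methylenetetrahydrofolate dehydrogenase, had 756, 804 and 890 normalised reads in controls and 672, 577 and 666 in knockouts. Each knockout was below each control (-0.36 ± 0.10, interval -0.56 to -0.15, limma adjusted p = 0.0395). This call was lost when any 1 of the 6 libraries was left out (adjusted p 0.0554 to 0.259) and without the robust option (adjusted p = 0.121). Without both libraries numbered 3 the difference was -0.32 (adjusted p = 0.421).

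Shmt2, the mitochondrial enzyme that splits serine ahead of Mthfd2, had 1658, 1603 and 1778 in controls and 1627, 1240 and 1146 in knockouts. Knockout 1 lay within the controls and the other two were below them (-0.34 ± 0.11, limma adjusted p = 0.0893). Without knockout 1 its difference was -0.49 (adjusted p = 0.00898), and with no filter on low values Shmt2 passed at an adjusted p of 0.0106. Other settings were weaker: adjusted p was 0.22 without the robust option and up to 0.359 with 1 library left out. With each library's trend with GC content and transcript length subtracted, Shmt2 was at -0.22 (adjusted p = 0.138). Without both libraries numbered 3 it was at -0.20 (adjusted p = 0.642). Aldh1l2, which oxidises formyl-folate in mitochondria, had 1071, 911 and 921 against 803, 765 and 891, with the groups apart (-0.24 ± 0.10, adjusted p = 0.173). The 3 mitochondrial folate enzymes thus had negative fold changes, and 1 of them passed.

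The genes of the 3 steps of serine synthesis had fold changes of differing sign, and none of the 3 passed the test. Phgdh, the entry enzyme, had 1296, 1280 and 1424 normalised reads in controls and 1138, 1185 and 1020 in knockouts, each knockout below each control (-0.26 ± 0.09, limma adjusted p = 0.109). Psph, the last step, had 264, 246 and 289 against 241, 227 and 206, also with the groups apart (-0.24 ± 0.12, adjusted p = 0.273). Psat1, the step between them, had 1120, 1209 and 1098 in controls and 1272, 1489 and 1291 in knockouts, each knockout above each control (0.24 ± 0.09, adjusted p = 0.146). The ratio of Psat1 to Phgdh within a library, chosen after its values were seen, was 0.864, 0.945 and 0.771 in controls and 1.12, 1.26 and 1.27 in knockouts. After subtracting from every library its own trend with GC content and transcript length, Phgdh was at -0.13 and Psat1 at 0.25. Asns, asparagine synthetase and a standard ATF4 target, had 522, 528 and 581 against 567, 566 and 508 (0.01 ± 0.10, interval -0.19 to 0.21).

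**Figure D3:**
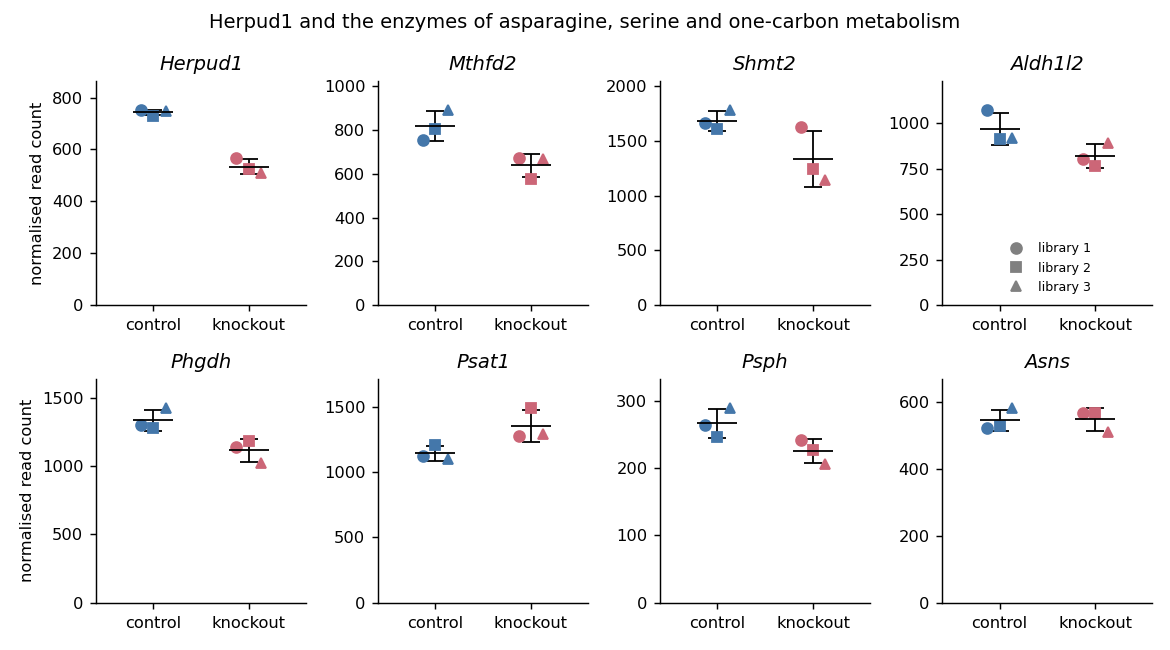
Normalised read count (axes from 0) of Herpud1, the 3 mitochondrial folate enzymes, the 3 serine synthesis enzymes and Asns in each library, with mean (wide bar) and SD (capped line) for n = 3 libraries per genotype; symbols give the library number. Herpud1 at 730 to 751 in controls and 510 to 568 in knockouts shows the clearest separation, Psat1 lies higher in knockouts, and Asns overlaps.

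The amino acid transporters did not differ beyond the spread between libraries. Slc7a11, the cystine transporter, had 2494, 2429 and 2471 normalised reads in controls and 2110, 3074 and 2209 in knockouts. The knockouts lay on both sides of the narrow control range (-0.02 ± 0.12, interval -0.27 to 0.23). Slc7a5, a carrier of large neutral amino acids, had 979.3 ± 95.4 and 972.7 ± 128 (-0.01 ± 0.10). Its partner chain Slc3a2 had 1168 ± 62.7 and 1118.3 ± 61.3 (-0.06 ± 0.09).

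The ER chaperones are the classic readout of the unfolded protein response, and their promoters carry the ER stress element (ERSE), to which ATF6 and NF-Y bind. Promoter windows from RefSeq (build GRCm38.p6, 250 bases before to 50 after the start) were matched for 32 of the 35 members. An exact ERSE, searched on both strands as CCAAT and CCACG with 9 bases between them, was in the windows of 6 members and in 0.137% of 27025 genes with a window. The ERSE windows are shown because these genes are direct targets of the response; capitals mark the fixed letters of the element or its reverse complement, 5′ to 3′ on the gene's strand.
Hspa5 (chr2:34772019-34772048, plus strand): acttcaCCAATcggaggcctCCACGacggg
Hsp90b1 (chr10:86705633-86705662, minus strand): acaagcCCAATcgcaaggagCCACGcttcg
Hsp90b1 (chr10:86705528-86705557, minus strand): agagtgCGTGGtgaggcacgATTGGtgagt
Calr (chr8:84847070-84847099, minus strand): acaacgCGTGGtcgaccctcATTGGcccat
Canx (chr11:50325795-50325824, minus strand): tattgaCCAATcaccacgctCCACGaagaa
Dnajc3 (chr14:118937821-118937850, plus strand): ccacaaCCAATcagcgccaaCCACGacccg
Pdia6 (chr12:17266485-17266514, plus strand): cagagaCCAATgaaaggcggCCACGgcgtg
The spacer between the fixed ends differs from gene to gene, and Hsp90b1 holds a copy in each orientation. The members had been picked as known targets, so the share that holds the element is a description.

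None of these 6 genes passed the test, and their log2 fold changes ran from -0.08 to 0.14. Hspa5, the ER chaperone BiP that also holds the sensors inactive, had 22815, 20749 and 22291 normalised reads in controls and 19522, 22362 and 21060 in knockouts. The groups overlapped (-0.07 ± 0.08, interval -0.24 to 0.11, limma adjusted p = 0.708). Hsp90b1, the ER form of HSP90, had 17382 ± 272 and 17529.7 ± 1019.7 (0.01 ± 0.08). Dnajc3, a co-chaperone that also inhibits PERK, had 1532.7 ± 40.1 and 1597 ± 169 (0.05 ± 0.09). Pdia6, a disulfide isomerase, had 8492.7 ± 491 and 8357.7 ± 785 (-0.03 ± 0.09).

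The lectin chaperones calreticulin and calnexin, which hold glycoproteins during folding, differed in sign. Calr had 17911, 16896 and 17817 in controls and 15991, 17166 and 16801 in knockouts, with overlap (-0.08 ± 0.08). Canx had 12712, 13056 and 11949 against 13411, 13196 and 14898, with each knockout above each control (0.14 ± 0.08, limma adjusted p = 0.402). After that correction for GC content and length, Canx was at 0.03. The disulfide isomerase Pdia3, their partner, had 15086 ± 571 and 15375.3 ± 794 (0.03 ± 0.08). Pdia4, another isomerase, had 4804, 4796 and 4573 against 3889, 4478 and 3951, with the groups apart (-0.20 ± 0.08, adjusted p = 0.191). The co-chaperone Dnajb9, a target of spliced XBP1, had 346, 365 and 358 against 374, 388 and 426, again with the groups apart and knockouts higher (0.15 ± 0.10, adjusted p = 0.454). Sdf2l1, an ER protein induced by ER stress, had 420.7 ± 34.7 and 368 ± 26.9 (-0.19 ± 0.11).

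Herpud1 was the member with the clearest difference. The gene (chromosome 8, 94386438 to 94395377, plus strand, mm10) encodes a membrane protein that organises the HRD1 ubiquitin ligase complex and is one of the genes most readily induced by ER stress. It had 751, 730 and 747 normalised reads in controls and 568, 525 and 510 in knockouts. The highest knockout lay well below the lowest control, and values within a genotype were close (742.7 ± 11.2 and 534.3 ± 30.1). The log2 fold change was -0.48 ± 0.09 (limma adjusted p = 0.00349). The call held with each library left out in turn (adjusted p up to 0.0439), without the robust option (adjusted p = 0.0287) and after the correction for GC content and length (-0.38, adjusted p = 0.0043). In the 4 female-pattern libraries alone the difference was -0.44 with an adjusted p of 0.21, in a fit that called 0.137% of genes.

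The Herpud1 promoter is printed because it was the only one among the 32 members with the compact form of the element, ERSE-II (ATTGG and CCACG with 1 base between them, on either strand), which was in 0.0444% of genes with a window. It also held a CARE, the C/EBP-ATF response element that ATF4 binds (TGATGNAA, on either strand), found in 7 members and 4.51% of genes. The 130 bases that end 1 base before the RefSeq start are given with the fixed letters of the CARE (reverse strand) and then of the ERSE-II in capitals.
Herpud1 (chr8:94386299-94386428, plus strand): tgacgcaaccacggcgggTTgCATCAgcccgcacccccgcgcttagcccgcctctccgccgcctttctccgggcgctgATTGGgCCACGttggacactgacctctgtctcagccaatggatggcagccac
The CARE began 112 bases and the ERSE-II 52 bases before the start.
The other members with a CARE were Asns, Chac1, Fgf21, Nupr1, Slc7a11 and Trib3. Of these Fgf21 was not tested, and none of the rest passed the test. As examples, the CARE windows of Asns and Chac1 are shown.
Asns (chr6:7693212-7693241, minus strand): ccagccacaTGATGaAActtcccgcacgcg
Chac1 (chr2:119351040-119351069, plus strand): tccctgccgTTgCATCActcctgccaggtc
A short element of 8 letters (UPRE, TGACGTGG) was in 0 members and 0.714% of genes.

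The other members of ER-associated degradation did not follow Herpud1. Sel1l, the scaffold of the HRD1 complex, had 2633, 2622 and 2523 normalised reads in controls and 2694, 2409 and 2831 in knockouts (0.03 ± 0.09, interval -0.15 to 0.21). Edem1, a lectin that hands misfolded glycoproteins to the complex, had 792, 805 and 790 against 769, 787 and 824. Its groups overlapped, with a log2 fold change of 0.00 ± 0.09. A further list of 16 genes of this machinery had 0 members called higher and 0 lower, with a median of 0.08.

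Further genes of the 2 responses, 147 in 10 lists, were read from the same fit. Of these, 9 rose and 6 fell, which is 10.2%, beside 4.86% of all tested genes and 8.08% of those whose mean reached 100, and the median log2 fold change was 0.00. In the list of eIF2alpha kinases and phosphatases (12 genes) 1 rose, Eif2ak2, the kinase PKR that senses double-stranded RNA and is induced by interferon. It had 648, 653 and 544 in controls and 749, 807 and 848 in knockouts (0.38 ± 0.10, limma adjusted p = 0.0272). Among further ATF4 and CHOP targets (22 genes) 2 rose and 1 fell. Tnfrsf10b, a death receptor gene, rose from 217 ± 18 to 363 ± 62.6 (0.73 ± 0.13, adjusted p = 0.00221). Slc1a5, a glutamine transporter gene, fell from 1216.3 ± 34 to 837 ± 162 (-0.56 ± 0.11, adjusted p = 0.00686). Slc38a2, another transporter gene, was the remaining riser, named after its values were seen (0.34, adjusted p = 0.0468). Of the 12 cytosolic aminoacyl-tRNA synthetases, which ATF4 raises together, 0 passed in either direction, and 10 lay below 0.

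In the mitochondrial arm 0 of 12 genes rose and 2 fell. These 16.7% stand beside 4.86% of all tested genes and 8.08% of those whose mean reached 100. The median was -0.24, and -0.18 after subtracting each library's trend with GC content and transcript length. Over genes whose mean reached 100 these medians were -0.02 and 0.00. Both fallers belong to the relay that carries mitochondrial stress to eIF2alpha kinase HRI. Dele1, the messenger of that relay, had 1852, 1759 and 1798 normalised reads in controls and 1381, 1232 and 1252 in knockouts. Each knockout was far below each control (-0.49 ± 0.08, limma adjusted p = 0.00166). The call held with each library left out (adjusted p up to 0.0319). Without both libraries numbered 3 the difference was -0.47 with an adjusted p of 0.188, in a fit that called 0.137% of genes. Oma1, the protease that cuts the DELE1 protein, had 343, 365 and 313 against 274, 264 and 229, with the groups apart (-0.41 ± 0.11, adjusted p = 0.043). Among folate enzymes outside the 35 (10 genes), Mthfd2l, the close relative of Mthfd2, rose from 283 ± 21.5 to 387.3 ± 53.4 (0.45 ± 0.12, adjusted p = 0.034), opposite in sign to Mthfd2. Aldh1l1, the cytosolic relative of Aldh1l2, fell from 40 ± 6.24 to 20.67 ± 3.06 (-0.92 ± 0.24, adjusted p = 0.035).

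Further ER genes moved in both directions. Called were 12.5% of the folding list, 11.1% of the translocation and export list and 16.7% of the transducers. Beside them stand 4.86% of all tested genes and 8.08% of those whose mean reached 100. Of 24 folding genes 3 rose and 0 fell: Hspa13, a chaperone of the HSP70 family (from 807.3 ± 35.9 to 1067.3 ± 102, 0.40 ± 0.09, limma adjusted p = 0.0158), Fkbp14, a prolyl isomerase gene (0.40, adjusted p = 0.0199), and its relative Fkbp7, named after its values were seen (0.49, adjusted p = 0.0252). Of 18 genes of ER translocation and export 2 rose and 0 fell: Ssr1, of the translocon-associated complex (0.32, adjusted p = 0.0356), and Spcs3, of the signal peptidase (0.32, adjusted p = 0.0477). Of 12 further stress transducers 0 rose and 2 fell: Creb3l1, an ATF6-like membrane factor (-0.41, adjusted p = 0.0214), and Atf6b, the relative of Atf6 (-0.37, adjusted p = 0.0269). Of 9 cytosolic heat shock genes 0 rose and 0 fell.

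Most of these further calls were lost when a library or the robust option was left out. Fewer libraries also cut the calls in the whole table, from 1299 to 481 without control 1. They fell to 420 without control 3 and to 496 without knockout 3. Without the robust option 0 of the 147 genes were higher and 1 lower (Dele1, limma adjusted p = 0.0264), beside 1.31% of all genes. Of the 13 genes that the naming rule selects from these lists, 11 lost their call when at least 1 library was left out. The exceptions were Dele1 and Tnfrsf10b, whose calls were lost without both libraries numbered 3 (adjusted p = 0.188 and 0.338). The 11 genes were Slc1a5, Hspa13, Fkbp14, Creb3l1, Atf6b, Eif2ak2, Mthfd2l, Aldh1l1, Ssr1, Oma1 and Spcs3. Without control 1 all 11 calls were lost, at adjusted p of 0.0579 (Slc1a5) to 0.227 (Spcs3). All 11 were also lost without knockout 3, at 0.0633 (Slc1a5) to 0.214 (Spcs3). Without control 3 all but Slc1a5 were lost (0.0815 to 0.252). Without knockout 2 the calls of Fkbp14, Atf6b, Eif2ak2, Mthfd2l, Aldh1l1, Oma1 and Spcs3 were lost (0.0548 to 0.08). Leaving out control 2 lost those of Creb3l1, Mthfd2l, Aldh1l1, Oma1 and Spcs3 (0.0515 to 0.145). Leaving out knockout 1 lost those of Aldh1l1 (0.0756) and Oma1 (0.0521). The fold changes of the 11 genes kept their sign in each of these fits. Slc38a2 and Fkbp7 reached adjusted p of 0.303 and 0.155 with 1 library left out.

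GC content moved with these calls. The 9 risers had a GC content of 39.8% to 48.9% in their longest transcript and the 6 fallers 48.5% to 60.3%. Across the 12348 genes of known GC content whose mean reached 100, Spearman's rho between GC content and log2 fold change was -0.44, and across the 30 members it was -0.33. Both are descriptions across genes of the same libraries. After the correction for GC content and length, 6 of the 9 risers (Eif2ak2, Tnfrsf10b, Fkbp7, Fkbp14, Hspa13 and Ssr1) and 4 of the 6 fallers (Slc1a5, Atf6b, Oma1 and Dele1) still passed, as did Herpud1 and Mthfd2 among the members.

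**Figure D4:**
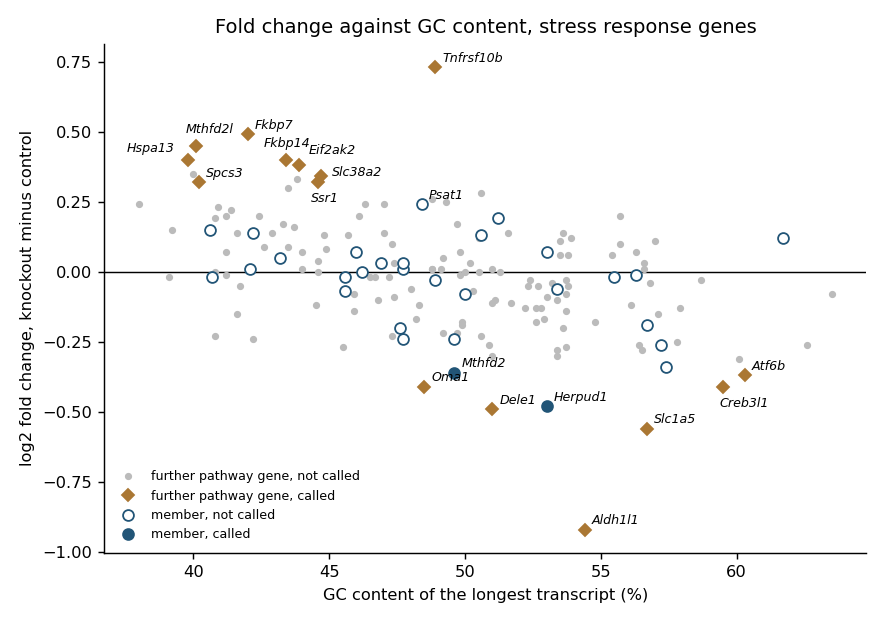
Log2 fold change (knockout minus control) against GC content of the longest transcript, for members with a control mean of at least 100 (circles, filled where called) and further genes of the pathways (diamonds where called; grey dots where not called, with a control mean of at least 100). Called risers lie between 39.8% and 48.9% GC and called fallers from 48.5% to 60.3%, with Herpud1 among the fallers.

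Some members share exon sequence with a gene on the opposite strand, and the counting was not stated to use strand. The share of exon bases was 14.1% for Aldh1l2, 10.4% for Psph, 10.3% for Hsp90b1 and 8.05% for Eif2ak3. The partner of Aldh1l2 (D10Wsu102e) had 1001 to 1118 normalised reads and that of Psph (Cct6a) 5559 to 6169, while the partner of Hsp90b1 (1810014B01Rik) had 48 to 72 and that of Eif2ak3 (Gm43292) 1 to 6. The small differences of Aldh1l2 and Psph are therefore less certain. Other members shared at most 4.11%, and Herpud1 and Mthfd2 none.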

How the data were processed

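RNA of 6 embryonic mouse heart libraries was prepared from 500 ng of total RNA with a stranded polyA kit and sequenced as single-end reads of 75 bp, per the labels' protocols. Per the submitters' processing notes, the mm10 build and DESeq, DESeq2, featureCounts 1.5.0, STAR 2.4.2a and Trimmomatic are named, without role or order; annotation, strand setting and filters are not stated in any source used here. The authors deposited a score: counts scaled per library and rounded, read from whole numbers missing at even spacing in 3 libraries. Single reads cannot be recovered, so no count model was used.

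The 26747 genes whose mean reached 1 in either genotype entered a two-sided limma 3.58.1 test (R 4.3.3) of log2(value + 1), with variance trend and robust moderation, and Benjamini-Hochberg adjustment over all genes; the threshold was 0.05. The fit was tried on simulated data. Members and lists were chosen with earlier results of these data known. Named were all 35 members and, per further list, the 2 called genes with the lowest adjusted p. Of 147 further entries, 1 was matched by an older symbol. Coordinates, exon length, GC content and transcript length came from the GENCODE annotation of GRCm38, the assembly of mm10, which held 99.3% of identifiers. No source says that libraries are separate animals, so p-values measure the spread between libraries. Library pairs had Pearson's r of 0.988 to 0.991, and none were identical.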

Additional observations from a re-analysis of the deposited data

How the results depend on the processing

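Alternatives were voom weights, moderation without the robust option, median-of-ratios and upper-quartile rescaling, pseudocounts of 0.5 and 5, a minimum mean of 10 or none, removal of each library's trend with GC content and transcript length, a replicate block, both of these together, and leaving out libraries. Of the 34 tested members, 20 kept the sign of their log2 fold change under every alternative; the others had differences near 0 or low values. The count of members called higher was 0 in all but 1: with the replicate block and the GC and length trend removed it was 1 (Psat1, adjusted p = 0.042). The count of members called lower was 3 with no minimum mean (Shmt2 added at adjusted p = 0.0106, beside Herpud1 and Mthfd2), 1 without the robust option and 1 with the replicate block (Mthfd2 at adjusted p = 0.0528), 0 without both libraries numbered 3, and 1 to 2 with each library left out. The median of the members stayed between -0.04 and 0.00 with each library left out. Genes called in the whole table fell from 1299 to 350 without the robust option, to 38 without both libraries numbered 3, and ranged from 420 to 1253 with each library left out. Of the further pathway genes, those higher numbered 0 without the robust option, 0 without both libraries numbered 3 and 1 to 10 with each library left out; those lower numbered 1, 0 and 1 to 9. Same-numbered libraries did not pair throughout. Their deviations from the group means correlated at 0.052, 0.07 and 0.329 across 13805 genes. In numbers 1 and 2 a library correlated better with the other number (0.17 and 0.171). The libraries numbered 3, both of male pattern, had the highest correlation of any control and knockout pair. With the other numbers they correlated at -0.200 to -0.192. Deviations within a genotype sum to 0 for each gene, so these negative values partly follow from the positive one. The part of sex in this was not tested. Depth limits Chac1, Gdf15, Nupr1 and Fgf21, which had at most 15 normalised reads per library.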
